A study of Mus musculus with 12 samples.

Results

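The collagens, laminins and integrins are the chains from which cells build their extracellular matrix and the receptors with which they hold it. They are described here in mouse embryoid bodies deficient in Trim33, a chromatin reader and ubiquitin ligase of the TGF-beta pathway, and in control bodies. Members were chosen by gene symbol (a collagen alpha chain, a laminin alpha, beta or gamma chain, or a name starting with Itga or Itgb), with a mean of at least 0.5 CPM over all libraries. CPM is counts per 1000000 counts of the library, scaled here by TMM, which corrects library totals for differences in composition. Of 24015 gene rows, 84 had such a name and 65 reached the limit: 33 collagens, 10 laminins and 22 integrin names. One of the 22, Itgb3bp, matches by name only and codes for a centromere protein.

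The 12 libraries are bulk RNA from embryoid bodies, the aggregates that embryonic stem cells form in suspension, with 3 in each of 4 groups: both genotypes, control and Trim33-deficient, on days 2 and 2.5. The stem cells were derived from outbred embryos homozygous for Trim33-flox with the UbcCreERT2 transgene, a Cre recombinase made under the ubiquitin C promoter and switched on by tamoxifen. The labels give this origin for the controls too, while the genotype label of the controls reads wildtype, and no source used here settles which alleles they carry. Cells of passages 8 to 10 were grown without feeders in LIF and 2i, and 4OH-Tamoxifen was given on day 1. No source used here says whether the controls received it. The labels mention independent pairs and nothing further on how separate the cultures were, so the p-values cover library-to-library spread only, which may be technical.

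Laminins are trimers of 1 alpha, 1 beta and 1 gamma chain that assemble into sheets on the cell surface, and with collagen IV, nidogen and perlecan they make the basement membrane. Integrins are pairs of an alpha and a beta chain that bind these proteins outside the cell and the actin or keratin skeleton within. In the early embryo and in embryoid bodies, a basement membrane forms between the outer endoderm and the epiblast, and the epiblast uses it to polarise.

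Libraries held 10066338 to 16529627 counts, so 3 counts, taken as the floor, equal 0.181 to 0.298 unscaled CPM, for counting error only. The 65 genes took 0.274 to 0.367% of the counts. Replicate 1 of the day 2 deficient bodies and replicate 2 of the day 2.5 controls had more ribosomal precursor Rn45s (7.87 and 11.9% of counts) than the other libraries (0.609 to 1.67%). Trim33 itself read 275, 261 and 277 CPM in the day 2 controls and 60.4, 69.5 and 68.0 in the day 2 deficient bodies. On day 2.5 it read 264, 247 and 239 against 54.4, 57.5 and 62.8, so no deficient library reached a control (log2 -2.03 ± 0.06 SE and -2.10 ± 0.06, n = 3 each, edgeR adjusted p = 1.00e-11 and 6.35e-12).

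On day 2.5 most of the members that differed between the genotypes were higher in Trim33-deficient bodies. The test was edgeR's quasi-likelihood test, adjusted by Benjamini-Hochberg over 14356 genes, with a threshold of 0.05, and it covered 64 members. Lama2, at 0.57 CPM, was dropped by the filter on low counts. Between genotypes, rose and fell mean higher and lower in deficient bodies than in controls of the same day, not a change with time. On day 2.5, 29 members rose in deficient bodies, where 22.0% of all genes tested did, and 7 fell, where 20.7% did. On day 2, 8 rose and 2 fell, where 5.94% and 3.90% of all genes did. The median log2 fold change over the 64 was 0.35 on day 2.5 and 0.19 on day 2, beside -0.01 and -0.005 over all genes tested. By family, 13 of 33 collagens, 6 of 9 laminins and 10 of 22 integrin names rose on day 2.5, and 6 collagens and 1 integrin fell. Of the 29 that rose, 12 did so by at least 2-fold, and none of the 7 that fell did. The share of all genes at 2-fold or more was not counted, so these numbers cannot be called particular to the members. Of the members, 36 averaged under 5 CPM, including 13 of the 29 that rose. With the limit at 5 CPM, 29 members were left, and 16 of them rose. The libraries of the genotypes did not overlap for 45 of the 64 members on day 2.5, beside 7602 of the 14356 genes tested. On day 2 this held for 29 members, beside 4227 genes, so separate groups alone are common in these data. In bulk RNA, fewer cells of a type and less RNA per cell cannot be told apart.

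**Figure D1:**
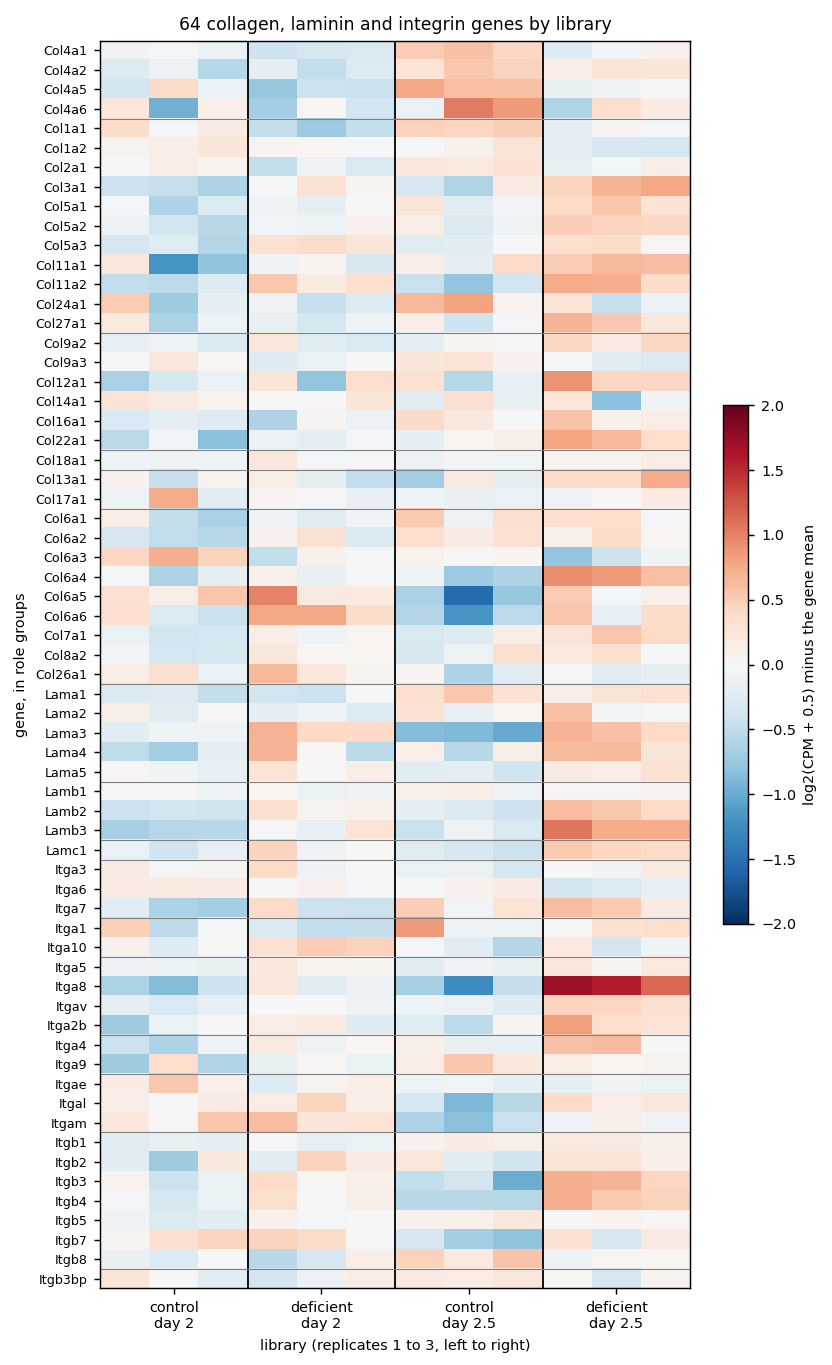
Colour map of 64 of the 65 genes (rows, in role groups) in the 12 libraries (columns, 3 per group), as log2(CPM + 0.5) minus the mean of the gene. The day 2.5 deficient libraries are red for most fibrillar collagens, Lama3, Lamb3, Itga8, Itgb3 and Itgb4, and pale for the collagen IV chains, which are reddest in the day 2.5 controls.

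Day 2 counts depended on single libraries. The 8 that rose became 4 without day 2 control replicate 3 and 4 without day 2 Trim33-deficient replicate 1. The 2 that fell became 1 without replicate 2 or 3 of the day 2 controls or replicate 1 or 3 of the day 2 deficient bodies, and 4 without replicate 1 or 3 of the day 2.5 deficient bodies. Across all 12 such fits, 4 of the 10 calls were kept throughout, those of Lama3, Lamb2 and Col1a1 among them. On day 2.5, 23 of the 36 calls were. Of the 10 members that passed on day 2, 8 also passed on day 2.5 in the same direction, as did 1209 of 1413 genes overall.

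Among the laminins, Lama3 and Lamb3, the alpha and beta chains of laminin-332, were higher in deficient bodies than in controls on both days. Laminin-332 is the laminin of epithelia that stand on a firm basement membrane, such as skin. Lama3 read 39.5, 43.2 and 43.2 CPM in day 2 controls and 74.7, 60.6 and 59.8 in day 2 deficient bodies. On day 2.5 it read 24.9, 24.6 and 22.5 in controls and 74.4, 68.9 and 60.3 in deficient bodies. Every deficient library thus stood above every control of its day, and the day 2.5 controls were the lowest of the 4 groups. The log2 fold change was 0.62 ± 0.09 SE on day 2 (adjusted p = 0.000972) and 1.50 ± 0.10 on day 2.5 (adjusted p = 3.11e-08).

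Lamb3 read 2.00, 2.16 and 2.20 CPM in day 2 controls against 3.39, 3.06 and 4.30 in deficient bodies, and 2.43, 3.20 and 2.71 against 7.85, 6.14 and 6.13 on day 2.5. Here the day 2.5 deficient libraries were the highest of all 12, above the controls of both days (log2 0.76 ± 0.21 SE, adjusted p = 0.0293, then 1.28 ± 0.18, adjusted p = 4.93e-05). Its day 2 call was lost in 5 of the 12 fits that leave out a library, with an adjusted p of 0.133 without day 2 Trim33-deficient replicate 3.

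Per kilobase of exon, Lama3 and Lamb3 were minor. In day 2.5 controls the highest laminin levels were those of Lama5 (42.2 CPM per kilobase), Lamc1 (32.7) and Lamb1 (22.4), the chains of laminin-511, the main laminin of the epiblast. Lama3 stood at 2.23, and Lamb3 at 0.420. In day 2.5 deficient bodies Lama3 reached 6.31 and Lamb3 reached 1.01. Lama3 thus stood above Lamb3 in both genotypes, by more than either differed between the genotypes.

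Of the laminin-511 chains, Lama5 and Lamc1 rose on day 2.5 and Lamb1 did not pass. On day 2.5 Lama5 averaged 481 ± 39.3 CPM (SD, n = 3) in controls and 668 ± 37.7 in deficient bodies (log2 0.47). Lamc1 averaged 270.5 ± 17.6 and 463 ± 24.3 (log2 0.78). Their adjusted p-values were 0.000171 and 0.000451. Lamb1, the common beta chain, read 222 ± 20.3 and 220.4 ± 2.48 CPM (log2 -0.01 ± 0.06 SE, adjusted p = 0.892). Lamb2, the beta chain that replaces Lamb1 at synapses and in kidney filters, rose on both days (log2 0.58 ± 0.10 and 0.83 ± 0.09 SE, adjusted p = 0.00185 and 5.67e-06). Lama1, the alpha chain of laminin-111, an early laminin of the embryo, had log2 fold changes of 0.08 and -0.16 with adjusted p-values of 0.743 and 0.246. Lama4 did not pass on either day (log2 0.67 and 0.68).

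**Figure D2:**
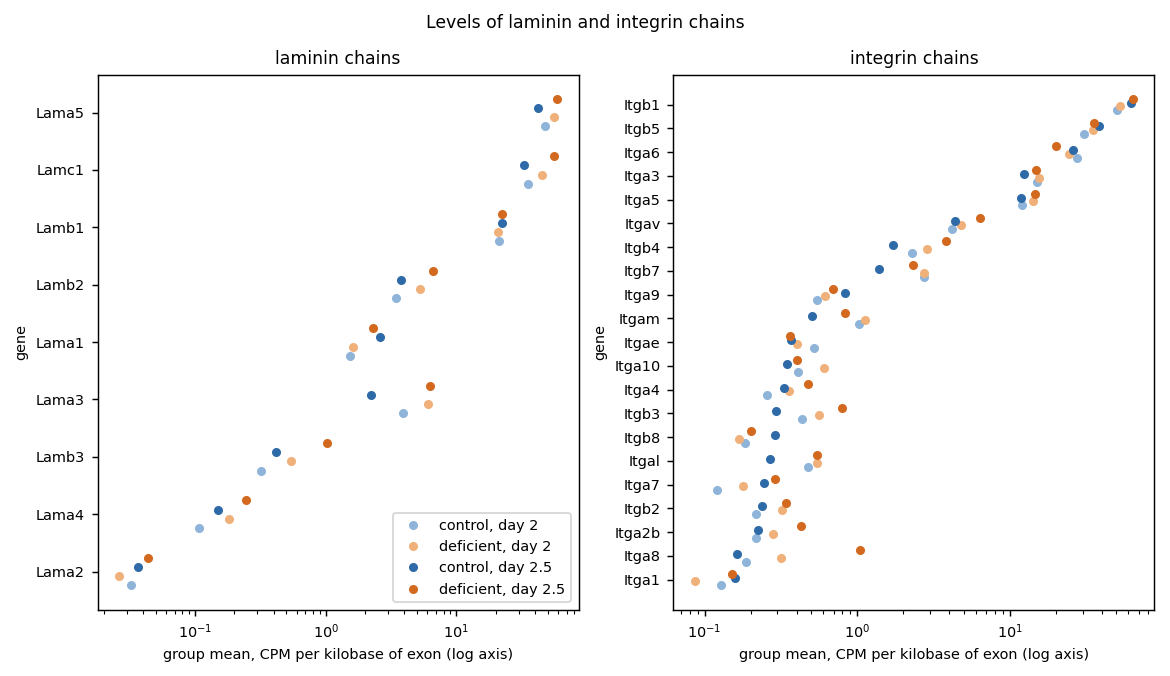
Group mean level per kilobase of exon (log axis) of laminin and integrin chains in the 4 groups. Lama5, Lamc1 and Lamb1 lead the laminins and Itgb1, Itgb5 and Itga6 the integrins in every group, and the day 2.5 deficient group is farthest to the right for Lama3, Lamb3, Itgb4, Itgav and Itga8.

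The beta chain of the laminin-332 receptor rose on day 2.5 too. Itgb4, which with Itga6 forms the hemidesmosome receptor for laminin-332, read 17.4, 14.3 and 16.3 CPM in day 2 controls and 22.5, 18.1 and 19.5 in day 2 deficient bodies, a difference that did not pass (log2 0.31 ± 0.11 SE, adjusted p = 0.0740). On day 2.5 it read 12.1, 12.1 and 11.9 in controls and 29.9, 26.1 and 24.9 in deficient bodies. The lowest deficient library stood far above the highest control there (log2 1.16 ± 0.10 SE, adjusted p = 9.54e-07). Its partner Itga6 moved the other way. Itga6 averaged 234 ± 12.4 CPM (SD, n = 3) in day 2.5 controls and 182 ± 13.0 in deficient bodies (log2 -0.36 ± 0.06 SE, adjusted p = 0.000107), and it remained the higher of the pair per kilobase, at 20.2 against 3.84 in day 2.5 deficient bodies. Col17a1, the transmembrane collagen of the hemidesmosome, did not pass on either day (log2 -0.33 and 0.19), while Col7a1, which anchors the basement membrane to the tissue below, rose on day 2.5 (log2 0.57, adjusted p = 0.00665). The other laminin-binding alpha chains, Itga3 and Itga7, did not pass in either genotype comparison.

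All 4 alpha chains that bind RGD, the short peptide in fibronectin, osteopontin and vitronectin, rose on day 2.5, where 22.0% of all genes did. Itga8, whose partner is Itgb1 and whose ligand nephronectin is known from the kidney bud, showed the largest fold change of any member. It read 1.36, 1.08 and 1.65 CPM in day 2 controls, 2.86, 1.94 and 2.15 in day 2 deficient bodies, 1.31, 0.710 and 1.57 in day 2.5 controls and 9.01, 8.04 and 5.89 in day 2.5 deficient bodies. The day 2.5 deficient libraries stood apart from the other 9, while the day 2 difference did not pass (log2 0.72 ± 0.30 SE, adjusted p = 0.140, against 2.61 ± 0.25, adjusted p = 1.69e-06). GENCODE places a transcript on the opposite strand across the start of Itga8, and with the strand setting not given its reads cannot be told apart from those of Itga8. The row of that transcript held at most 6 counts in a library.

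Itgav, the alpha chain shared by vitronectin receptors and by activators of latent TGF-beta, read 45.6, 42.0 and 46.5 CPM in day 2 controls and 51.8, 51.7 and 49.8 in day 2 deficient bodies. On day 2.5 it read 48.9, 47.9 and 43.4 against 71.5, 70.5 and 65.1. The genotypes were separate on both days, and the test passed on day 2.5 only (log2 0.19 ± 0.07 SE, adjusted p = 0.0841, then 0.56 ± 0.07, adjusted p = 9.44e-06). Itgb3, which pairs with Itgav and Itga2b, read 1.90, 2.13 and 1.20 CPM in day 2.5 controls against 5.09, 4.90 and 4.04 in deficient bodies. On day 2 it read 3.04, 2.01 and 2.60 in controls and 3.92, 2.94 and 3.13 in deficient bodies, and there the groups overlapped (log2 0.36 ± 0.23 SE, adjusted p = 0.352, then 1.44 ± 0.23, adjusted p = 0.000124). Itga5, the fibronectin receptor chain, rose by a small amount on both days (log2 0.24 ± 0.06 and 0.30 ± 0.06 SE, adjusted p = 0.0262 and 0.00126), and its day 2 adjusted p was 0.112 without day 2 Trim33-deficient replicate 1, the highest of 3 libraries whose removal ended the call. Itga2b rose on day 2.5 (log2 0.90, adjusted p = 0.0235), with an adjusted p of 0.124 without day 2.5 Trim33-deficient replicate 1, 1 of 3 such libraries.

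The 2 beta chains with the highest level per kilobase, Itgb1 and Itgb5, did not pass on day 2.5. Itgb1, the beta chain of most matrix receptors, had a log2 fold change of 0.04 ± 0.05 SE (adjusted p = 0.548). Itgb5, another partner of Itgav, rose on day 2 (log2 0.20 ± 0.06 SE, adjusted p = 0.0484) and had a log2 fold change of -0.11 on day 2.5 (adjusted p = 0.141). The day 2 call of Itgb5 was lost in 9 of the 12 fits that leave out a library, with an adjusted p of 0.169 without day 2 Trim33-deficient replicate 1. Itgb8, which with Itgav activates latent TGF-beta, did not pass (log2 -0.07 and -0.52). Neither did the collagen-binding chains Itga1 and Itga10. Itga9, which binds tenascin, did not pass, and Itga4, which binds fibronectin and Vcam1, rose on day 2.5 (log2 0.51, adjusted p = 0.0426). That call was lost in 6 fits without a library, with an adjusted p of 0.170 without day 2.5 Trim33-deficient replicate 2.

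**Figure D3:**
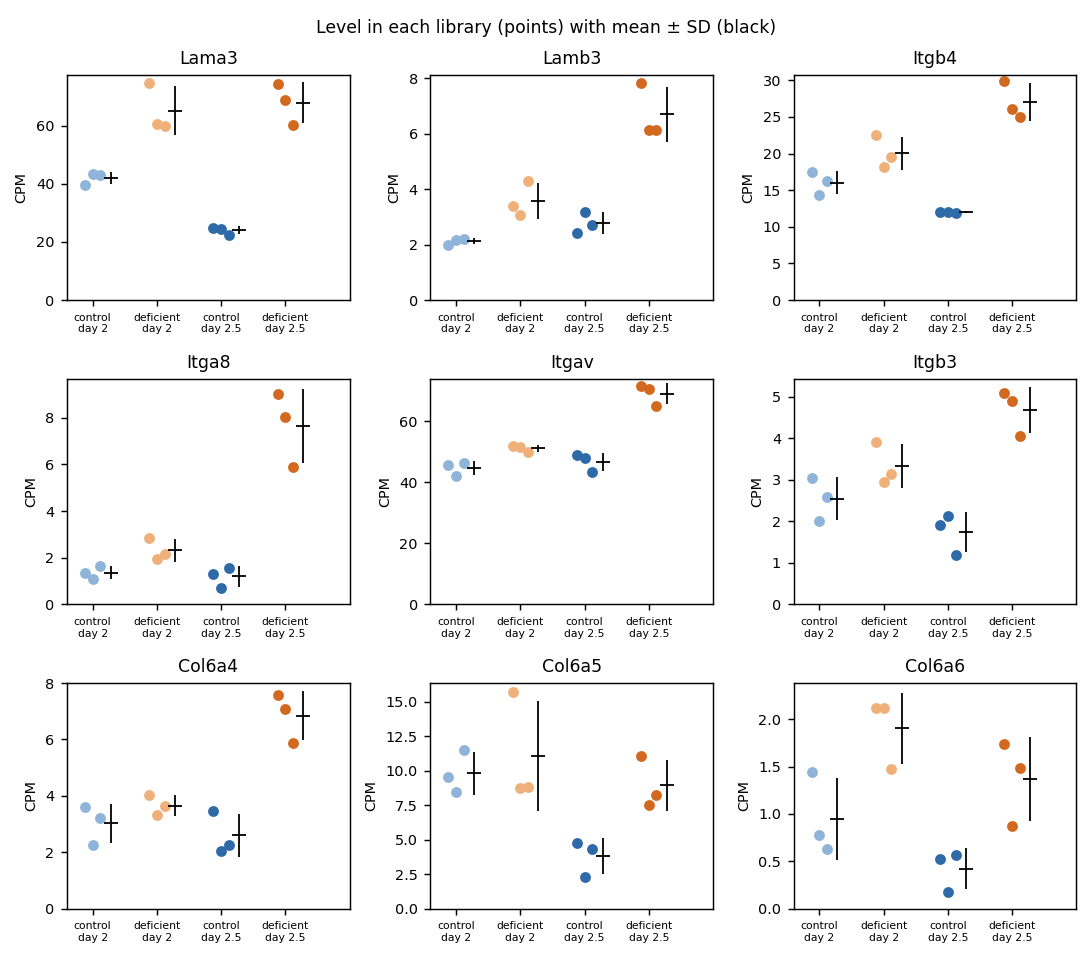
Level in CPM of 9 genes in each of the 12 libraries (points) with the group mean and SD (black, n = 3 per group). For Lama3, Lamb3, Itgb4, Itga8, Itgav, Itgb3 and the 3 collagen VI genes of the bottom row, all day 2.5 deficient libraries lie above all day 2.5 controls, and Lama3, Itgb4 and Col6a5 are lower in day 2.5 than in day 2 controls.

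Integrin chains known from leukocytes were present at low levels. Of 3 leukocyte alpha chains, 2 were higher in day 2.5 deficient bodies (66.7%, beside 22.0% of all genes). Of 7 integrin beta chains, 3 were (42.9%), among them the leukocyte chain Itgb7. Itgal and Itgam, alpha chains of lymphocyte and macrophage receptors, were higher by log2 0.99 ± 0.20 and 0.68 ± 0.20 SE (adjusted p = 0.00104 and 0.0127). Itgb7, a homing receptor chain, was higher by log2 0.74 ± 0.21 (adjusted p = 0.0104). Itgam read 4.96, 4.25 and 6.37 CPM in day 2 controls, 6.68, 5.06 and 5.16 in day 2 deficient bodies, 2.56, 2.13 and 2.96 in day 2.5 controls and 3.85, 4.61 and 3.99 in day 2.5 deficient bodies. Itgb7 read 6.32, 7.81 and 8.49, then 8.59, 8.00 and 6.08, then 4.72, 3.55 and 3.27, then 7.63, 4.68 and 6.96 CPM in the same order. In both genes the day 2.5 controls were the lowest group, and for Itgb7 its highest library overlapped the lowest deficient one. Itgam's adjusted p was 0.0519 without day 2.5 Trim33-deficient replicate 2 and that of Itgb7 0.0604 without day 2.5 control replicate 3, 1 of 2 libraries that ended its call. Itgae and Itgb2 did not pass on either day.

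Of 10 markers of blood and endothelium, 6 were tested and 2 rose on day 2.5 (33.3%, beside 22.0% of all genes). They were Pecam1 (log2 1.26, adjusted p = 5.51e-05) and Cd68 (log2 1.55, adjusted p = 1.50e-05). Both are also known outside blood cells, Pecam1 in pluripotent cells. Their list summed to 55.6 to 65.9 CPM in day 2.5 controls and 104 to 136 in day 2.5 deficient bodies, against 89.2 to 103 and 103 to 132 on day 2. Of the 10, 5 averaged under 1 CPM, among them Cdh5 and Ptprc, the pan-leukocyte gene, at 0.197, 0.0888 and 0.0629 CPM in day 2.5 controls and 0.291, 0.0731 and 0.297 in deficient bodies. Hbb-bh1, embryonic globin, had no count in any library. What part the cells behind these markers had in the integrin values was not tested.

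Collagen IV is the network collagen of every basement membrane. Of its 4 members above the limit, 2 were lower in deficient bodies than in controls on day 2.5 (50%, beside 20.7% of all genes). Col4a1 read 41.1, 42.6 and 39.5 CPM in day 2 controls and 32.3, 34.3 and 35.0 in day 2 deficient bodies. On day 2.5 it read 61.5, 65.1 and 57.9 in controls and 36.1, 41.4 and 46.1 in deficient bodies. Deficient libraries were below controls on both days, and the difference passed on day 2.5 (log2 -0.27 ± 0.08 SE, adjusted p = 0.0513, then -0.57 ± 0.08, adjusted p = 4.97e-05). Col4a2, which lies next to Col4a1 and joins the same trimer, had a log2 fold change of -0.21 ± 0.13 SE on day 2.5 (adjusted p = 0.197). Col4a5 fell on day 2.5 (log2 -0.91 ± 0.24 SE, adjusted p = 0.00655), and Col4a6, at a mean of 0.56 CPM, did not pass. Per kilobase, Col4a1 stood at 8.24 CPM in day 2.5 controls against 2.07 for Col4a2.

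Endoderm of the outer layer of embryoid bodies is known for collagen IV and laminin. Its 14 markers summed to 40.0 to 51.8 CPM in day 2.5 controls and 36.8 to 38.6 in deficient bodies, and to 35.4 to 39.5 and 35.0 to 37.5 on day 2. Of the 9 tested, 3 rose on day 2.5 (Gata6, Sox17 and Hnf4a, each with a mean under 2 CPM in every group) and 2 fell (Dab2 and Amn). That is 33.3 and 22.2%, beside 22.0 and 20.7% of all genes. Of the 14, 8 averaged under 1 CPM, and the visceral endoderm genes Ttr, Afp and Apoa1 had no library above 0.24 CPM. Their part in the collagen IV and laminin values was not tested.

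Col18a1, whose end piece is endostatin, had the highest level per kilobase of the collagens, 120.0 CPM in day 2.5 controls. It rose on day 2.5 by log2 0.17 ± 0.06 SE (adjusted p = 0.0340), and the call was lost in 5 fits without a library, with an adjusted p of 0.115 without day 2.5 Trim33-deficient replicate 3.

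Of 11 fibrillar collagens, which form the ropes of connective tissue, 5 rose and 3 fell on day 2.5 (45.5 and 27.3%, beside 22.0 and 20.7% of all genes), and 2 rose and 2 fell on day 2. Col1a1 and Col1a2, the chains of type I collagen, fell on day 2.5 (log2 -0.57 and -0.43), and Col1a1 also on day 2, where it averaged 5.12 ± 0.797 CPM (SD, n = 3) in controls and 2.88 ± 0.331 in deficient bodies (log2 -0.84 ± 0.17 SE, adjusted p = 0.00769). Col2a1, the cartilage collagen, fell on both days by small amounts (log2 -0.36 and -0.24, adjusted p = 0.0296 and 0.0483), and these calls were lost in 4 and 7 of the fits without a library, with adjusted p-values of 0.126 without day 2 Trim33-deficient replicate 1 and 0.195 without day 2.5 Trim33-deficient replicate 1. Col1a2's adjusted p was 0.0932 without day 2.5 control replicate 3, 1 of 3 such libraries. On day 2.5 these 3 were the fibrillar chains that fell, and Col3a1, Col5a1, Col5a2, Col11a2 and Col27a1 were those that rose.

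Col3a1, which joins type I fibrils in soft tissue, read 0.960, 0.927 and 0.786 CPM in day 2 controls, 1.48, 1.94 and 1.54 in day 2 deficient bodies, 1.05, 0.799 and 1.70 in day 2.5 controls and 2.18, 2.63 and 2.86 in day 2.5 deficient bodies. The groups were separate on both days and the test passed on day 2.5 (log2 0.90 ± 0.30 SE, adjusted p = 0.0716, then 1.07 ± 0.26, adjusted p = 0.00341). Col11a2, a minor chain of cartilage fibrils, read 1.20, 1.16 and 1.49, then 2.97, 2.19 and 2.52, then 1.25, 0.888 and 1.32, then 3.49, 3.44 and 2.56 CPM in the same order. It was higher in every deficient library than in any control of its day (log2 0.97 ± 0.24 SE, adjusted p = 0.0220, then 1.41 ± 0.23, adjusted p = 0.000183), with a day 2 adjusted p of 0.0773 without day 2 Trim33-deficient replicate 1, 1 of 4 libraries that ended that call. Col5a1 and Col5a2, which set fibril width, rose on day 2.5 (log2 0.42 and 0.55), and Col5a3 on day 2 (log2 0.78). Col27a1 rose on day 2.5 (log2 0.59). Adjusted p reached 0.108 without day 2.5 Trim33-deficient replicate 2 for Col5a1, 0.104 without day 2.5 Trim33-deficient replicate 1 for Col27a1 and 0.0720 without day 2 control replicate 3 for Col5a3. They were 1 of 4, 1 of 4 and 1 of 2 libraries that ended those calls.

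Fibroblasts and feeder cells are known for these collagens. Of 8 fibroblast markers, 6 averaged under 1 CPM, and Postn and Lum had no count in most libraries. The list summed to 23.4 to 32.6 CPM in day 2.5 controls and 12.7 to 14.5 in deficient bodies, and to 17.8 to 26.7 and 14.9 to 19.6 on day 2, most of it Thy1, which fell on day 2.5 (log2 -1.50, adjusted p = 9.51e-05). Its part in the type I collagen values was not tested.

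Of 6 FACIT collagens, which coat fibrils, Col9a2 and Col22a1 rose on day 2.5 (log2 0.39 and 0.69). Col9a3, a partner of Col9a2 in type IX collagen, fell (log2 -0.38). Shares were 33.3 and 16.7%, beside 22.0 and 20.7% of all genes. Col22a1, a collagen of tissue junctions, read 1.84, 2.78 and 1.42, then 2.65, 2.50 and 2.83, then 2.49, 3.02 and 3.21, then 5.38, 4.90 and 3.87 CPM in day 2 controls, day 2 deficient bodies, day 2.5 controls and day 2.5 deficient bodies. Its day 2.5 groups did not overlap, while its day 2 groups did. Adjusted p reached 0.135 without day 2.5 control replicate 1 for Col9a2, 0.0696 without day 2.5 Trim33-deficient replicate 1 for Col22a1 and 0.0503 without day 2.5 Trim33-deficient replicate 3 for Col9a3. These were 1 of 4, 1 of 2 and 1 of 1 libraries that ended those calls. Col12a1 (log2 0.93 ± 0.42 SE on day 2.5, adjusted p = 0.0835), Col14a1 and Col16a1 did not pass.

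Collagen VI forms beaded filaments from Col6a1, Col6a2 and a long chain, which can be Col6a3, Col6a4, Col6a5 or Col6a6. The last 3 of these were higher in deficient bodies than in controls on day 2.5. Col6a1, Col6a2 and Col6a3 did not pass in either genotype comparison. Col6a4 read 3.60, 2.24 and 3.22 CPM in day 2 controls, 4.03, 3.31 and 3.62 in day 2 deficient bodies, 3.48, 2.04 and 2.27 in day 2.5 controls and 7.56, 7.09 and 5.89 in day 2.5 deficient bodies. The day 2.5 deficient libraries were well above the other 9 (log2 1.37 ± 0.21 SE, adjusted p = 9.52e-05). Col6a5 read 9.52, 8.42 and 11.5, then 15.7, 8.75 and 8.78, then 4.72, 2.31 and 4.34, then 11.0, 7.53 and 8.27 CPM in the same order. Here the deficient bodies read near the day 2 level and the day 2.5 controls were low (log2 1.20 ± 0.28 SE, adjusted p = 0.00362). Col6a6 read 1.44, 0.773 and 0.629, then 2.12, 2.12 and 1.47, then 0.525, 0.178 and 0.566, then 1.74, 0.877 and 1.49 CPM. It was likewise lowest in day 2.5 controls (log2 1.61 ± 0.42 SE, adjusted p = 0.00607), where it rests on 8, 2 and 9 counts. On day 2.5 the log2 fold changes of Col6a1, Col6a2 and Col6a3 were -0.08, -0.12 and -0.57.

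The 3 collagen VI genes higher in day 2.5 deficient bodies lie next to each other in the RefSeq annotation of GRCm38.p6, among protein-coding genes. The stretches before their starts are shown with those of Lamb3 and Itga8, which were also higher in those bodies. From day 2 to day 2.5, Col6a4, Lamb3 and Itga8 rose in deficient bodies (log2 0.91, 0.89 and 1.75). Col6a5 and Col6a6 did not (log2 -0.27 and -0.45), and had log2 -1.33 and -1.07 in controls, where Col6a5 passed. The stretches are on the strand of the gene, 5′ to 3′, without bases that GENCODE vM21 places in exons of protein-coding genes. Windows of 300 bases (250 before and 50 after a RefSeq start, build GRCm38.p6) were found for 45 of the 65 members. Capitals mark matches, on either strand, to 6 words that factors or the basal machinery are known for. GGGCGG is the GC box, CCAAT is the CAAT box and TATAAA is the TATA box. TGANTCA is the word of AP-1, CAGAC is the SMAD box and AGATAA is a word of GATA factors. No matches overlap in these stretches. For Lamb3 the first of 2 RefSeq starts is shown.
Col6a4, chr9:106096784-106096941, minus strand: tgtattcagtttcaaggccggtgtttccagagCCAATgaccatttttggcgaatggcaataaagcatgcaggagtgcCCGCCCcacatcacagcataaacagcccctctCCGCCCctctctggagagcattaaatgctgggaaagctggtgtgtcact
Col6a5, chr9:105960644-105960893, minus strand: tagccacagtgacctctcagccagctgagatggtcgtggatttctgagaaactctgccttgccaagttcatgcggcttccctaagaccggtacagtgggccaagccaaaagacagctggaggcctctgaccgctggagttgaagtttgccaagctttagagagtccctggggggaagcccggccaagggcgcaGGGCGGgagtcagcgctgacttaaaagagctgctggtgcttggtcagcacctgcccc
Col6a6, chr9:105828161-105828335, minus strand: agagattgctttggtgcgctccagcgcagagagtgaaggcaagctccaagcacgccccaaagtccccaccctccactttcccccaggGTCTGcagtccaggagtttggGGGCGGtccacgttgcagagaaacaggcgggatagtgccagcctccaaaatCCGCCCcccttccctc
Lamb3, chr1:193301744-193301992, plus strand: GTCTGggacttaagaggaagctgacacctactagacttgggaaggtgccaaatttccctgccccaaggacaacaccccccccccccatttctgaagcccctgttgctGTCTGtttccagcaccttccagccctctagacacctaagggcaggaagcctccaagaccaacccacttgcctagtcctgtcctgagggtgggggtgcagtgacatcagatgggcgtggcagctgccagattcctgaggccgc
Itga8, chr2:12301945-12302194, minus strand: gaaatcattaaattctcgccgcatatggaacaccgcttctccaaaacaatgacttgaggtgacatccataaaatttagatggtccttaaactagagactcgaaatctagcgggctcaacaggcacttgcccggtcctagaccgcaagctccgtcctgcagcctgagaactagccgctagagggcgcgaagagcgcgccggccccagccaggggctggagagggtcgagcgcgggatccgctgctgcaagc

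The stretch of Col6a4 held CCAAT and 2 GC boxes, that of Col6a5 held 1 GC box, and that of Col6a6 held 1 SMAD box and 2 GC boxes. Lamb3 had 2 SMAD boxes and Itga8 none of the 6 words. Over all 49 windows of members, GGGCGG was found in 63.3%, against 35.7% of 32851 windows of all genes. CAGAC was found in 55.1% against 49.6%, CCAAT in 28.6% against 37.4%, TATAAA in 8.16% against 13.6%, AGATAA in 6.12% against 11.2% and TGANTCA in 6.12% against 7.81%. Among the 23 windows of members that rose on day 2.5, 15 held CAGAC, 14 held GGGCGG, 3 held CCAAT, 3 held TATAAA, 1 held AGATAA and 0 held TGANTCA. A match is a description of the letters and not a binding site.

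Among the remaining collagens, Col13a1, a transmembrane collagen of muscle synapses, read 0.800, 0.386 and 0.786, then 0.848, 0.562 and 0.369, then 0.262, 0.888 and 0.566, then 1.09, 1.10 and 1.55 CPM in day 2 controls, day 2 deficient bodies, day 2.5 controls and day 2.5 deficient bodies. It was higher in all day 2.5 deficient libraries than in the controls of that day (log2 1.19 ± 0.40 SE, adjusted p = 0.0251). Its adjusted p was 0.115 without day 2.5 control replicate 1, 1 of 3 libraries that ended the call, and its log2 fold change ranged from 0.83 to 1.58 over the fits without a library. Col8a2, Col26a1, Col11a1 and Col24a1 did not pass on either day.

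**Figure D4:**
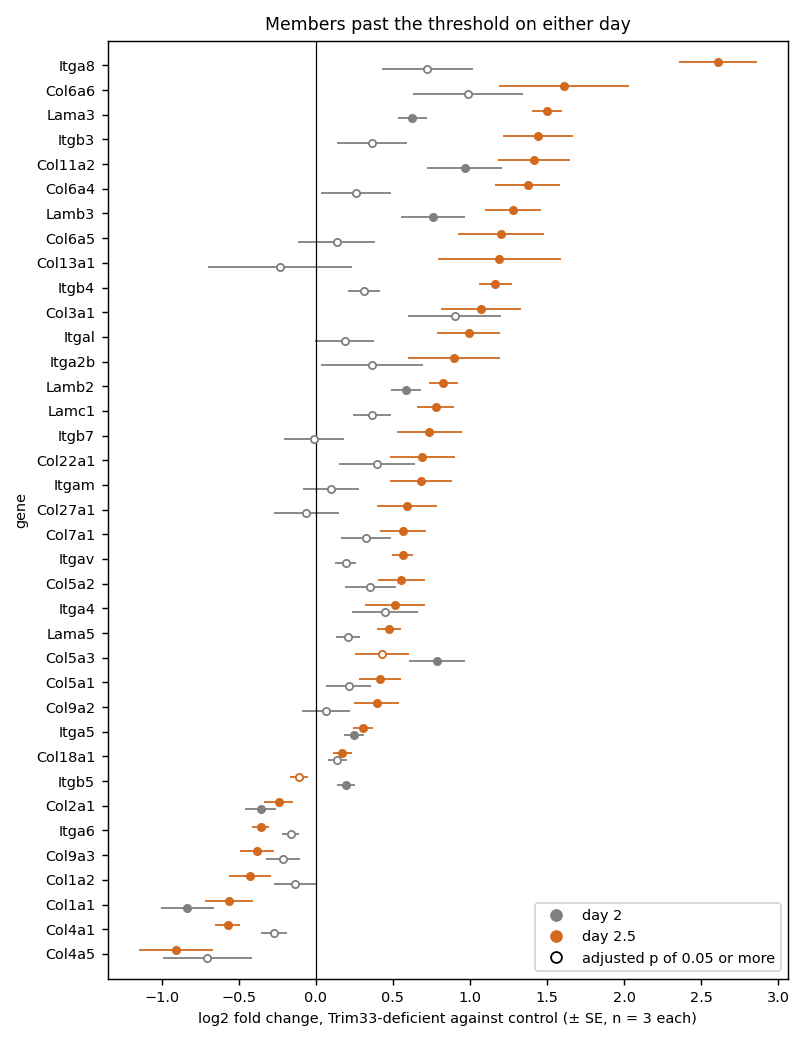
Log2 fold change of Trim33-deficient against control bodies (± SE, n = 3 each) on day 2 (grey) and day 2.5 (orange) for 37 of the 38 members past the threshold on either day. Filled points passed and open points did not. Itga8 has the highest day 2.5 value and the 7 lowest genes, from Col4a5 to Col2a1, lie to the left of 0 on both days.

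From day 2 to day 2.5, 8 members rose in controls, where 8.20% of all genes did, and 6 fell, where 7.91% did. In deficient bodies 16 rose, where 9.09% did, and 1 fell, where 6.93% did. The 16 became 6 without day 2 Trim33-deficient replicate 2, 8 without day 2.5 Trim33-deficient replicate 2, and 9 without replicate 3 of the day 2 or replicate 1 of the day 2.5 deficient bodies. They became 27 without the 3 libraries that stood apart from their groups (replicate 2 of the controls of both days and replicate 1 of the day 2 deficient bodies). Chi-square per degree of freedom against their fellow replicates was 6.15 and 9.48 for the day 2 control. It was 125 and 129 for the day 2.5 control and 74.2 and 74.8 for the deficient library. They were picked from these same data, so counts without them are no independent check. The 8 of the controls became 5 without day 2 control replicate 3.

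The members that rose in controls were Col4a1, Col4a2, Col4a5, Col6a2, Itga7, Itgb1, Itgb5 and Lama1. Of these, Col4a1, Col4a2, Lama1 and Itgb1 also rose in deficient bodies, by log2 0.58 and 0.28 for Col4a1, 0.77 and 0.57 for Col4a2, 0.74 and 0.51 for Lama1 and 0.31 and 0.27 for Itgb1, in controls and deficient bodies. Col4a1, Col4a2 and Lama1, chains known from the first embryonic basement membrane, rose with time in both genotypes. Itga7, a laminin receptor chain of muscle, read 1.28, 0.850 and 0.786 CPM in day 2 controls and 2.43, 1.51 and 2.01 in day 2.5 controls (log2 1.05 ± 0.33 SE, adjusted p = 0.0432), with 2.23, 1.06 and 1.04 and 2.69, 2.49 and 1.84 in deficient bodies. That call was lost in 6 fits without a library, with an adjusted p of 0.156 without day 2 control replicate 3. The rise of Col4a5 in controls was lost in 5 such fits, with an adjusted p of 0.135 without day 2 control replicate 1. The calls of Itga7 and Col4a5 were also lost with DESeq2 and in the fit on the compared groups alone. The rise of Col6a2 was lost in 1 fit without a library, with an adjusted p of 0.0502 without day 2 control replicate 3. For Col4a1, the rise in deficient bodies had an adjusted p of 0.142 without day 2.5 Trim33-deficient replicate 3, 1 of 5 libraries that ended that call. Those of Lama1 and Col4a2 reached 0.0519 without day 2 Trim33-deficient replicate 2 and 0.0677 without day 2 Trim33-deficient replicate 2.

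The 6 that fell in controls were Col6a5 (log2 -1.33 ± 0.28 SE), Itgam (-1.01 ± 0.20), Itgb7 (-0.96 ± 0.21), Lama3 (-0.81 ± 0.10), Itgal (-0.80 ± 0.21) and Itgb4 (-0.41 ± 0.11), with adjusted p-values of 0.00631, 0.00325, 0.00588, 0.000116, 0.0172 and 0.0184. None of these passed as lower in deficient bodies, where Itgb4 rose (log2 0.44 ± 0.10 SE, adjusted p = 0.00779, or 0.0585 without day 2 Trim33-deficient replicate 2, 1 of 2 libraries that ended the call). All 6 are among the 29 that were higher in deficient bodies on day 2.5, a comparison that shares the day 2.5 controls. The calls of Itgal and Itgb4 in controls were each lost in 3 fits without a library, with adjusted p-values of 0.0664 without day 2.5 control replicate 2 and 0.0752 without day 2 control replicate 1.

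In deficient bodies the largest rises were those of Itga8 (log2 1.75 ± 0.23 SE, adjusted p = 0.000116), Col6a4 (0.91 ± 0.20, adjusted p = 0.00634), Lamb3 (0.89 ± 0.17, adjusted p = 0.00290) and Col22a1 (0.82 ± 0.21, adjusted p = 0.0173). The same 4 genes had log2 values of -0.14, -0.20, 0.37 and 0.52 in controls, where none passed. Col22a1's adjusted p in deficient bodies was 0.0816 without day 2.5 Trim33-deficient replicate 1, 1 of 3 libraries that ended the call. The other members that rose in deficient bodies were Col1a1, Col5a1, Col5a2, Col9a2, Col27a1, Lamb2 and Itgav, by log2 0.36 (Lamb2) to 0.73 (Col27a1). Of these 7, only Itgav kept the call in every fit without a library. Adjusted p reached 0.0872 without day 2 Trim33-deficient replicate 2 for Lamb2, 1 of 4 libraries that ended its call, and 0.177 without day 2 Trim33-deficient replicate 3 for Col9a2, 1 of 6 such libraries. The one member that fell in deficient bodies was Itga6 (log2 -0.28 ± 0.06 SE, adjusted p = 0.00298).

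**Figure D5:**
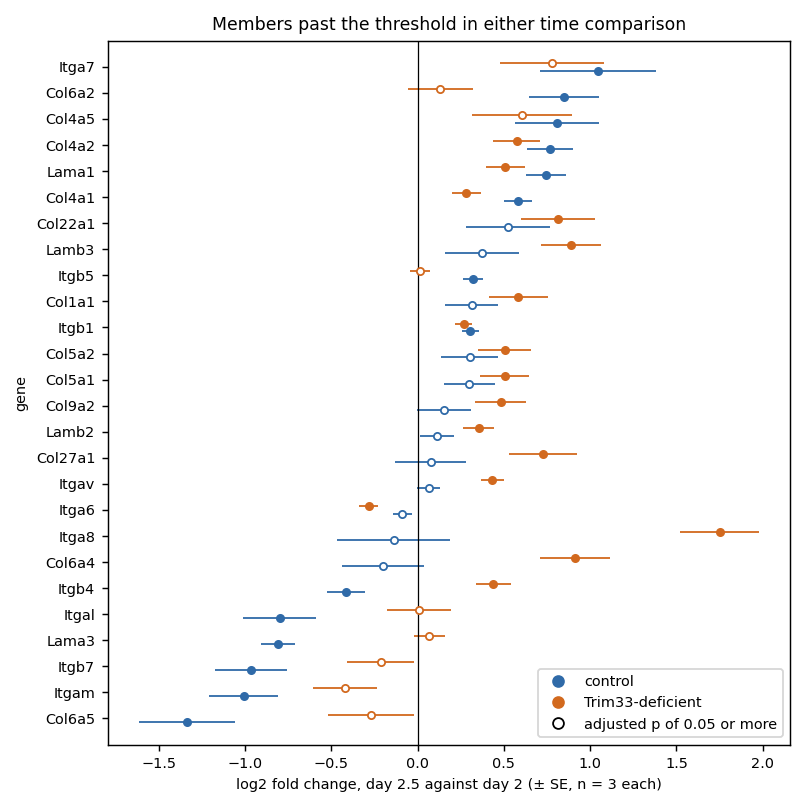
Log2 fold change of day 2.5 against day 2 (± SE, n = 3 each) in control (blue) and Trim33-deficient bodies (orange) for the 26 members past the threshold in either. Filled points passed and open points did not. Col4a1, Col4a2, Lama1 and Itgb1 are filled to the right of 0 in both genotypes, Itgb4 is filled on opposite sides, and Lama3 is filled in control only.

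The difference between the genotype effects of the 2 days was tested as an interaction. It passed for 4 members, where 2.77% of all genes passed as higher on day 2.5, and for no member as lower, where 1.24% did. In the edgeR test 4 members had an unadjusted p under 0.05 as lower, and DESeq2 called 1. The 4 were Itga8 (log2 1.89 ± 0.40 SE, adjusted p = 0.0189), Lama3 (0.87 ± 0.13, adjusted p = 0.00388), Itgb4 (0.85 ± 0.15, adjusted p = 0.00760) and Itgav (0.37 ± 0.09, adjusted p = 0.0408). Lama3 and Itgb4 kept this call in every fit without a library. Itga8 had an adjusted p of 0.0843 without day 2 control replicate 3 and Itgav of 0.125 without day 2 control replicate 3, and their calls were lost in 4 and 7 such fits. Without the 3 libraries named above, 11 members passed as higher. The count was 2 without replicate 3 of the day 2 controls, replicate 2 or 3 of the day 2 deficient bodies or replicate 1 of the day 2.5 deficient bodies. It was 7 without replicate 2 of the day 2 controls and 8 without replicate 1 of the day 2 deficient bodies.

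Other genes of the matrix and its receptors were read from lists of 64 genes that are not members, 61 of them tested. On day 2.5, 23 rose (37.7%, beside 22.0% of all genes) and 8 fell (13.1%, beside 20.7%), and on day 2, 5 rose (8.20%, beside 5.94%). Matrix partners, the proteins that bind collagens and laminins or are bound by integrins, gave 10 of 13 higher on day 2.5. Spp1 (osteopontin, an RGD ligand) averaged 57.3 ± 8.85 CPM (SD, n = 3) in controls and 138 ± 5.51 in deficient bodies (log2 1.26 ± 0.12 SE, adjusted p = 9.10e-06). Frem2, a basement membrane adhesion protein, had a log2 fold change of 1.11 (adjusted p = 1.53e-05), and Fn1, fibronectin, of 1.07 (adjusted p = 2.88e-05). On day 2, Agrn (agrin), Frem2 and Bcam, a receptor for Lama5, rose (log2 0.52, 0.79 and 0.76).

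Of 17 genes for collagen processing, 6 rose on day 2.5 (35.3%, beside 22.0% of all genes). They included Lepre1 and Crtap, which hydroxylate prolines in a complex, and Pcolce, an enhancer of procollagen cleavage (log2 0.52, 0.43 and 1.25, adjusted p = 0.000338, 0.000409 and 0.000550), and Pcolce rose on day 2 as well (log2 0.86, adjusted p = 0.0236). Of 17 adaptors between integrins and actin, 3 rose and 3 fell on day 2.5, 17.6% each way and below the shares of all genes. Zyx (zyxin) and Vcl (vinculin) fell (log2 -0.58 and -0.36, adjusted p = 3.22e-05 and 0.000608), and Actn1 (actinin) rose by a small amount on both days (log2 0.18 and 0.18). Of 14 matrix proteases and inhibitors, 4 rose and 5 fell on day 2.5 (28.6 and 35.7%, beside 22.0 and 20.7% of all genes). The inhibitor Timp2 averaged 9.07 ± 0.729 CPM (SD, n = 3) in controls and 3.73 ± 0.928 in deficient bodies (log2 -1.27 ± 0.16 SE), and Mmp2, which Timp2 helps to activate, fell (log2 -0.57), with adjusted p-values of 2.18e-05 and 2.32e-05.

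Of 7 pluripotent and epiblast markers, 2 were lower in deficient bodies on day 2 (28.6%, beside 3.90% of all genes). On day 2.5, 4 were lower and 1 was higher (57.1 and 14.3%, beside 20.7 and 22.0% of all genes), with a median log2 fold change of -0.56. They summed to 5299 to 5675 CPM in day 2 controls and 4145 to 4471 in day 2 deficient bodies, and to 4662 to 5242 and 3138 to 3785 on day 2.5. Unlike the sum of the list, Pou5f1, a pluripotency factor, overlapped between the genotypes on day 2.5. It read 856, 765 and 871 CPM in controls and 808, 856 and 822 in deficient bodies. Of 7 trophoblast markers tested, 4 rose on day 2.5 and 1 fell (57.1 and 14.3%, beside 22.0 and 20.7% of all genes). The epithelial keratin Krt8 was among those that rose (log2 1.11, adjusted p = 3.94e-06). The list summed to 90.2 to 152 CPM in day 2.5 controls and 103 to 143 in deficient bodies, and Elf5, which defines trophoblast stem cells, had counts in 1 library only. Of 5 tested streak and mesoderm markers, 3 fell on day 2.5 (60%, beside 20.7% of all genes), among them T (log2 -1.48, adjusted p = 0.000565). Their list summed to 24.2 to 34.3 CPM in controls and 13.0 to 19.0 in deficient bodies. The trophoblast and streak lists share Eomes, so their counts and sums are not independent. The part of the cells behind these markers in the laminin and integrin values was not tested.

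The limit of 0.5 CPM left out 19 names. Those just below it were Col20a1 (0.480 CPM), Col25a1 (0.451), Lamc3 (0.439) and Col23a1 (0.437), and those just above were Col4a6 (0.56) and Lama2 (0.57). Itgb6 and Itgb2l had no count in any library. The other chains left out included Itga2 and Itga11, receptors for collagen, and Col4a3 and Col4a4, the kidney chains of collagen IV, each with at most 13 counts over the 12 libraries.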

How the data were processed

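Total RNA was sequenced, and the authors deposited raw counts of reads per gene symbol, for which the submitters' processing notes name STAR, HTSeq, DESeq and build mm9. The sources used here give no version, annotation or strand setting, nor how multiply mapped reads were handled. Chains with near-identical copies or antisense partners are therefore uncertain. The 5 closing rows of each file, which name no gene, were left out. The other rows held 39.3 to 43.9% of all reads. In day 2.5 Trim33-deficient replicate 1, 27 names that had become dates were restored by row position.

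The counts were tested with edgeR 4.0.16 in R 4.3.3 (scaling by TMM, low genes removed by filterByExpr, a robust quasi-likelihood fit with 1 mean per group, 8 residual degrees of freedom, no replicate block, Benjamini-Hochberg adjustment over 14356 genes, threshold 0.05). Standard errors are the log2 fold change over the root of F. The fit was tested on simulated data, and replicates of a group differed by more than sampling noise. DESeq2 1.42.0 and other settings were alternatives. Levels per kilobase used the union of exons in GENCODE vM21, which may differ from the annotation used for counting. Promoter windows came from RefSeq (GRCm38.p6), and those of Col4a1 and Col4a2 are not shown.

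Members and lists were chosen with earlier results of these data known. Values per library are given for members past the threshold with a log2 change of at least 1 on either day, past the interaction test, or among the 4 largest changes in a time comparison. Up to 10 others per genotype comparison were named by smallest adjusted p, and of each partner list up to 3 genes. Other members, markers and their values, and the per-library values of Col4a1, are named to account for each group. The values of 2 genes, 1 of them a member, are not reported here, and counts over members and lists include them.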

Additional observations from a re-analysis of the deposited data

Results flagged for a closer look

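For 4 members the genotype effect differed between the 2 days by the edgeR interaction test. The effect on day 2.5 exceeded that on day 2 by log2 1.89 for Itga8, 0.37 for Itgav, 0.85 for Itgb4 and 0.87 for Lama3 (adjusted p = 0.0189, 0.0408, 0.00760 and 0.00388, n = 3 per group). From day 2 to day 2.5, Lama3 fell in controls, Itga8 and Itgav rose in deficient bodies, and Itgb4 fell in controls (log2 -0.41) and rose in deficient bodies (log2 0.44).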

How the results depend on the processing

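No result reversed under any setting run. Of the results for single members, 1577 kept their side of the threshold and 169 lost it, most of them in fits without a library. Of the 36 members under 5 CPM, 13 passed as higher and 2 as lower on day 2.5, and what depth kept from passing was not tested. Only 29 members averaged at least 5 CPM, so counts among them start from fewer genes. Among these 29, 5 were higher and 1 lower on day 2, 16 higher on day 2.5, and 5 higher with time in controls. On day 2 the number lower was 4 with upper-quartile factors, and without the 3 libraries that stood apart it was 1. Without those 3, 27 members rose with time in deficient bodies, and the interaction gave 11 higher and 2 lower. The interaction gave 1 lower with upper-quartile factors, 1 with no filter and 1 with DESeq2. The causes were not tested.

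Leaving out each library in turn, the range was 4 to 8 higher and 1 to 4 lower on day 2, 21 to 30 higher and 5 to 7 lower on day 2.5, 5 to 9 higher and 4 to 7 lower with time in controls, and 6 to 18 higher and 1 lower in deficient bodies. For the interaction it was 2 to 8 higher and 0 to 1 lower.

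The labels do not say whether control and deficient libraries of the same number form a pair, and so few libraries cannot settle it. Correlations of their deviations were 0.0745, 0.172 and -0.0788 on day 2 and -0.00944, -0.0330 and -0.0133 on day 2.5. Of these, 2 of 3 on day 2 and none on day 2.5 correlated best with their own number. Between the days, same-numbered libraries had correlations of 0.365, 0.451 and 0.0320 in controls and 0.182, -0.0181 and 0.0878 in deficient bodies, with 2 of 3 best with their own number in each. With the replicate number as a block, 11 members were higher and 5 lower on day 2, and the interaction gave 8 higher and 1 lower. In that fit, 10 members rose with time in controls and 20 in deficient bodies. With a replicate block within each day, the interaction gave 7 higher and 1 lower.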

Other observations

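Members of these families often lie next to each other in the genome. In RefSeq order, 7 pairs of members are neighbouring protein-coding genes. In 4 of them both genes rose in deficient bodies on day 2.5, among them Col3a1 with Col5a2, Col6a6 with Col6a5, and Col6a5 with Col6a4. That is 57.1% of the pairs, beside 5.93% of 9535 pairs of neighbouring genes tested, and the 2 last pairs share Col6a5. In the pairs Col4a1 with Col4a2 and Col4a6 with Col4a5, 1 gene fell and the other did not pass, and in Col6a2 with Col6a1 neither passed. These shares are a description with no test, and the members were chosen by name. Members rose more often than all genes to begin with (45.3 against 22.0%), so the shares of pairs do not isolate position in the genome.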
